A study of Mus musculus with 2 samples.

Results

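Mir451a, Mir144 and Mir486, the miRNA genes best known from red blood cells, were followed in small RNA sequencing of newborn mouse lung. They were taken by gene symbol from the tables of read counts, and all 3 had a row among the 1973 miRNA genes listed. The animals were B6NCrl mice, a C57BL/6N substrain, on postnatal day 0, and the labels name no treatment and no genetic change. The samples formed 1 group of 2 libraries, each from the 2 lungs of a pup of the same pregnancy, pup 3 for replicate 2 and pup 1 for replicate 1. Both libraries carry the same donor record, and the sex was not collected. Whether blood was washed out of the lung vessels is not given in the sources used here. Replicate 2 held 5426081 reads on the strand of a miRNA gene and replicate 1 held 4532902. Levels are counts per 1000000 of these reads (CPM), with the SD over the 2 libraries.

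Mir144 and Mir451a are transcribed together as 1 primary transcript under the erythroid factor GATA1 and rise as red cell precursors mature. miR-451 is known for protecting the precursors from oxidative stress, in part by lowering 14-3-3 zeta, and miR-144 is known to target the antioxidant regulator NRF2 in human cells. miR-451 is made in an unusual way, since its hairpin is cut by Drosha but not by Dicer and is then sliced by Argonaute 2. Mir486 lies in Ank1, which encodes the ankyrin of the red cell membrane, and is known from red cells and from muscle.

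The mature sequences are shown because reads of the deposited counts come from them and because their uniqueness decides which reads could be counted. They are from RefSeq on GRCm38.p6, 5′ to 3′, with the seed, bases 2 to 8, in capitals. Mir451a and Mir144 matched in the sequence table and Mir486 is named only.
miR-451a: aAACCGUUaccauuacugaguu
miR-144-3p: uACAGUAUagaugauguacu
miR-144-5p: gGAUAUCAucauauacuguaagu
miR-101a-3p: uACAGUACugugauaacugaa
No other mature mouse miRNA in the table shared a seed of bases 2 to 8 with miR-451a, miR-144-3p or miR-144-5p. miR-101a-3p shared bases 2 to 7 with miR-144-3p and is printed for that reason. Its gene Mir101a had 1168 reads in replicate 2 and 899 in replicate 1, or 215 and 198 CPM. None of the 3 mature sequences was contained whole in another of the 1005 hairpins searched.

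The hairpins show where the mature miRNAs, in capitals, lie in the precursors of the shared locus. For Mir451b, annotated on the opposite strand at the position of Mir451a, the capitals mark the longest stretch it shares with mature miR-451a.
Mir144: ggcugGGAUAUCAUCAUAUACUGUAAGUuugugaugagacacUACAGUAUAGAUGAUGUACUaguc
Mir451a: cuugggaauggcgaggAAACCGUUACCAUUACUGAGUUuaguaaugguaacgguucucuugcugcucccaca
Mir451b: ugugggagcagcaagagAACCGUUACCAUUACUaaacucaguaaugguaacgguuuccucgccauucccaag
Mir144 (ENSMUSG00000065401.1) is at chr11:78073005-78073070 and Mir451a (ENSMUSG00000070065.1) at chr11:78073170-78073241, both on the plus strand of GRCm38, with 99 bases between them. They lie between the genes Flot2 and Eral1, in no annotated host gene. The Mir451b hairpin shares 16 bases with miR-451a, its bases 2 to 17 of 22, so a full-length miR-451a read differs from the opposite strand and a strongly shortened one need not. In the predicted fold, mature miR-451a held all 4 bases of the terminal loop of its hairpin, and miR-144-5p and miR-144-3p held none of the 6 loop bases of theirs. Among 476 mature sequences from detected genes whose hairpin folded with 1 terminal loop, miR-451a was the only one that held the whole loop, and 3 held at least 1 loop base. Outside this set, miR-125b-5p also held a whole loop, with 3 loop bases, in the Mir125b-1 hairpin, which folded with 2 terminal loops.

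**Figure D1:**
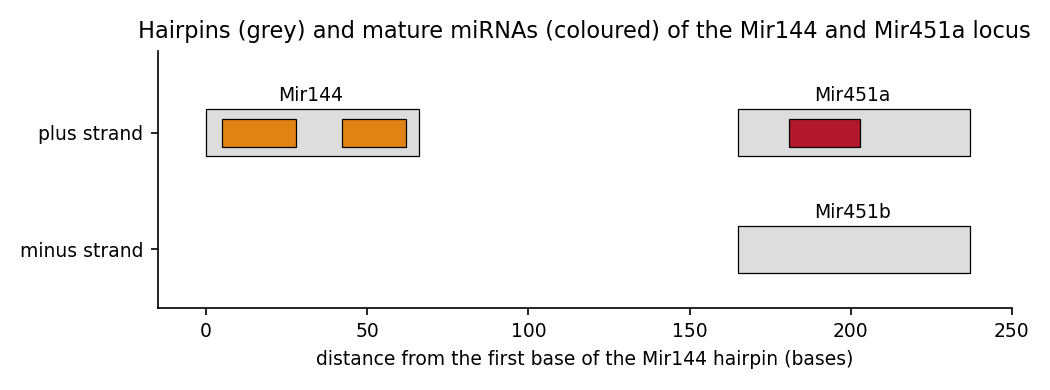
Map of the Mir144 and Mir451a locus; the x axis is the distance in bases from the first base of the Mir144 hairpin and the rows are the strands. Grey boxes are hairpins and coloured boxes mature miRNAs: Mir144 has a mature miRNA on each arm, and the single one of Mir451a reaches over the middle of its hairpin, opposite Mir451b.

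Mir451a was the most abundant of the 3 genes, followed by Mir144 and, far below, Mir486. Mir451a had 3885 reads in replicate 2 and 4822 in replicate 1, or 716 and 1064 CPM, with a mean of 890 ± 246 CPM (SD, n = 2). It was lower in replicate 2, and the exact Clopper-Pearson 95% intervals, 694 to 739 CPM in replicate 2 and 1034 to 1094 CPM in replicate 1, did not overlap. Mir144 had 2253 reads in replicate 2 and 1033 in replicate 1, or 415 and 228 CPM, with a mean of 322 ± 132 CPM. Its order was the opposite, higher in replicate 2, again with intervals that did not overlap, 398 to 433 CPM and 214 to 242 CPM. Mir486 had 97 reads in replicate 2 and 63 in replicate 1, or 17.9 and 13.9 CPM, with intervals that overlapped, 14.5 to 21.8 CPM and 10.7 to 17.8 CPM. The intervals cover counting error within a library alone, not the spread between pups. PCR copies of a molecule are not independent, so the intervals can be too narrow even for counting error. In whole lung, fewer red cells and less of a miRNA per cell cannot be told apart.

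**Figure D2:**
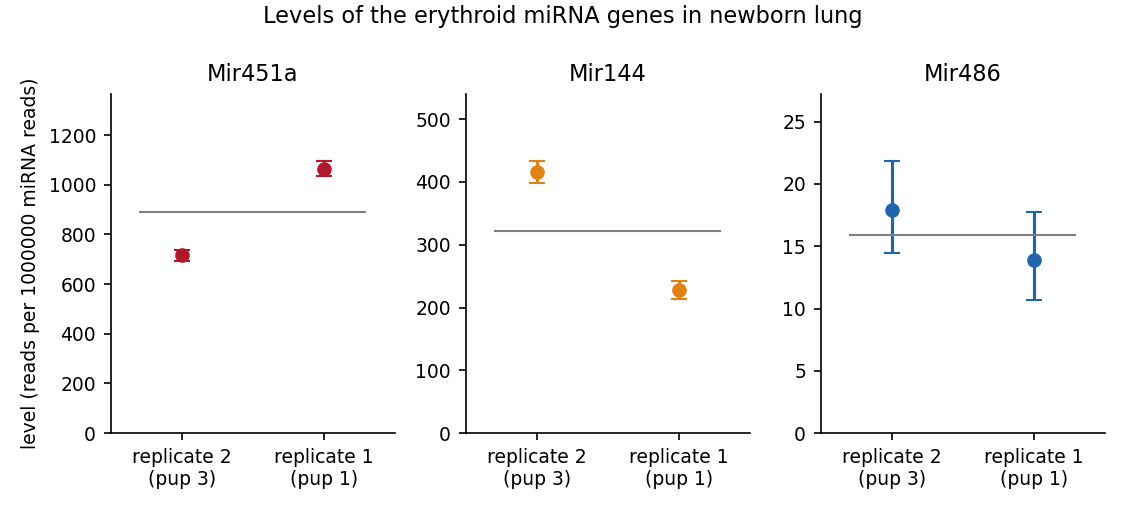
Levels in reads per 1000000 miRNA reads of Mir451a, Mir144 and Mir486, each panel with its own y axis from 0. Points are the libraries, bars their exact 95% intervals for counting error and the line the mean: Mir451a was at 716 in replicate 2 and 1064 in replicate 1, and Mir144 at 415 in replicate 2 and 228 in replicate 1.

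The 3 genes together took 0.115% of the miRNA reads in replicate 2 and 0.131% in replicate 1. The makeup of that share moved more than its size. Mir451a made up 62.3% of the summed reads in replicate 2 and 81.5% in replicate 1, and Mir144 36.1% in replicate 2 and 17.5% in replicate 1. The order Mir451a, Mir144, Mir486 held in each library, and the ranges of the 3 genes over the libraries did not overlap.

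Among all genes Mir451a ranked 84 by mean level, Mir144 122 and Mir486 240. The ranks of Mir144 moved most, 113 in replicate 2 and 142 in replicate 1. Neighbours in the order were taken as nearest in mean level, so overlap of their ranges with those of the members was likely from the start. Of the 18 genes next above and below the members, 17 had a range over the libraries that overlapped that of the member. The exception was Mir26a-1, above Mir486 at 19.1 ± 1.42 CPM (SD, n = 2). Next above Mir451a stood Mir16-2, a gene of miR-16 that red cells also hold in quantity, at 916 ± 251 CPM, then Mir183 and Mir154. Next below Mir451a were Mir1193, Mir100 and Mir337. Mature miR-16-5p is also in the hairpin of Mir16-1, and reads with several positions are in no gene row, so the level of Mir16-2 is uncertain. Mir144 stood between Mir300 at 335 ± 39.1 CPM and Mir134 at 319 ± 20.6 CPM, with Mir186, Mir339, Mir30b and Mir224 beyond these. Mir486 stood between Mir449c at 17.1 ± 0.751 CPM and Mir138-2 at 15.5 ± 1.82 CPM, with Mir218-2, Mir770 and Mir129-1 also beside it.

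**Figure D3:**
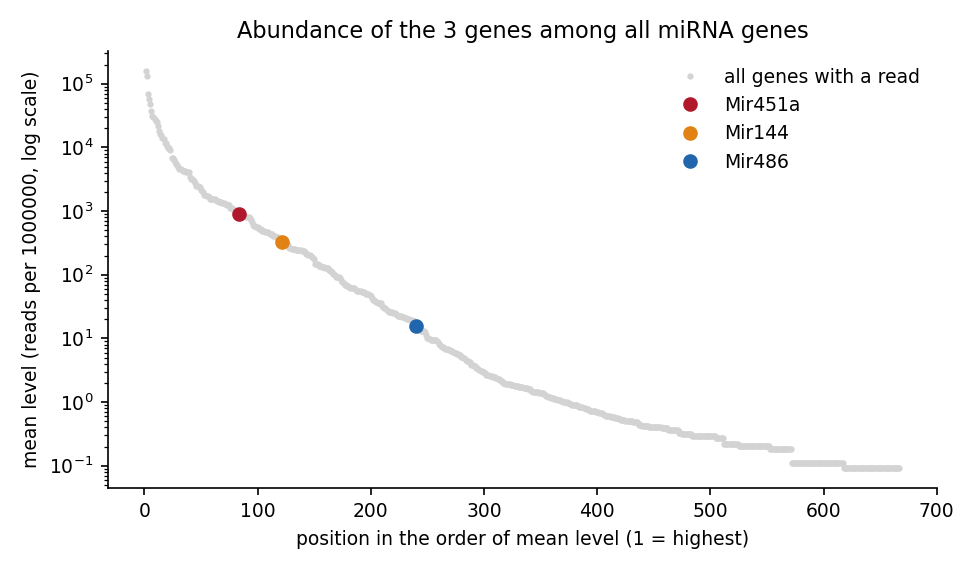
Mean level over the 2 libraries in reads per 1000000 (log scale) against position in the order of levels, with each grey point a miRNA gene with at least 1 read. Mir451a at position 84 and Mir144 at 122 lie in the upper part of the curve and Mir486 at 240 in its tail.

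Mir451a and Mir144 differed between the libraries by more than counting error, in opposite directions, and Mir486 did not pass. The log2 ratio of replicate 2 to replicate 1 was 0.87 for Mir144 (two-sided exact binomial test, Benjamini-Hochberg adjusted over 375 genes, p = 1.11e-59). It was -0.57 for Mir451a, with an adjusted p of 1.55e-74 in the same exact test. For Mir486 it was 0.36, with an adjusted p of 0.242 in the exact test. With so few reads a difference of this size in Mir486 was not detectable at this depth. The test compares 2 libraries of 1 group, and 42.4% of the tested genes passed it, 19.2% higher and 23.2% lower in replicate 2. A share of 2 in 3 members called is therefore no result about the members. By size of the log2 ratio, Mir144 had rank 2 and Mir451a rank 11 among 233 genes averaging 100 reads or more. Among the 146 that averaged 1000 or more, the rank was 1 for Mir144 and 5 for Mir451a. Against the spread of all genes between the libraries, in edgeR's negative binomial exact test with 1 common dispersion, neither passed. The adjusted p was 0.134 for Mir144 and 0.553 for Mir451a, and the unadjusted p in that exact test 0.00178 and 0.0361. In that test 1.07% of genes passed, and 32 of 375 had an unadjusted p under 0.05. Its dispersion was estimated from the same libraries.

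**Figure D4:**
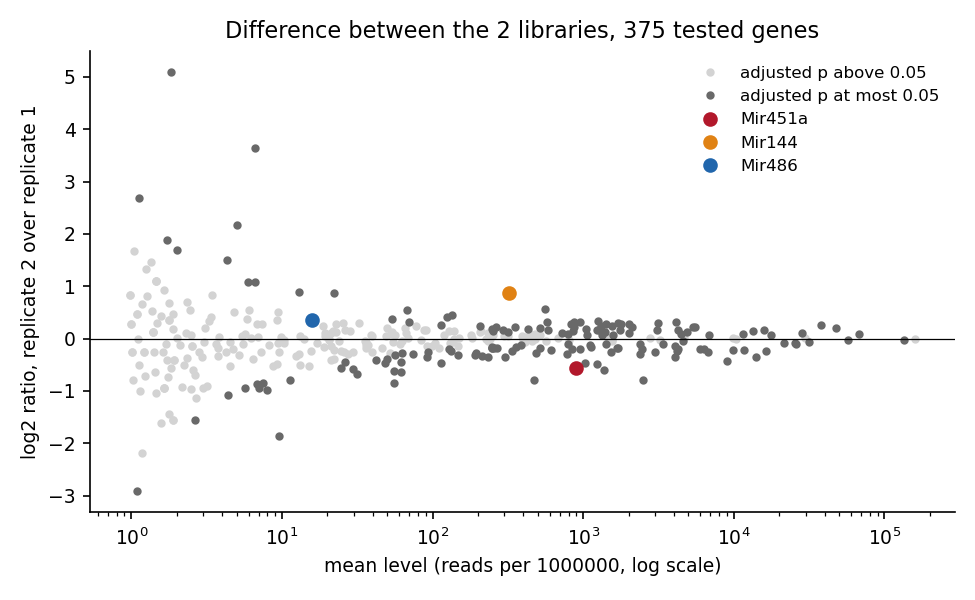
Log2 ratio of replicate 2 over replicate 1 against mean level in reads per 1000000 (log scale) for the 375 tested genes. Dark points passed the exact binomial test at an adjusted p of 0.05; Mir144 lies above genes of like level at 0.87, Mir451a below at -0.57 and Mir486 at 0.36.

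The ratio of Mir451a to Mir144 was examined because the genes share a transcript and the ratio needs no library total. Mir451a had 1.72 reads for each read of Mir144 in replicate 2 and 4.67 in replicate 1. The log2 ratio was thus 0.79 in replicate 2 and 2.22 in replicate 1, a change of -1.44, at an adjusted p of 2.61e-121 by Fisher's exact test, two-sided, over 100 neighbouring pairs. Each pair had both genes on 1 strand, starts within 10000 bases and at least 10 reads of each gene in each library. Of these pairs 45.0% passed, so passing does not set this pair apart. By size of the change it ranked 1 of 100, against a median of 0.24 in size. The 4 pairs after it were Mir669o over Mir466n at -1.25, Mir669c over Mir466n at -1.24, Mir181a-1 over Mir181b-1 at 1.24 and Mir29a over Mir29b-1 at 1.08. In each of these 4 the lower gene had 17 to 48 reads in a library, against 1033 or more for Mir144. Both genes of a pair passed the binomial test in opposite directions in 17 of the 100 pairs, Mir451a and Mir144 among them.

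**Figure D5:**
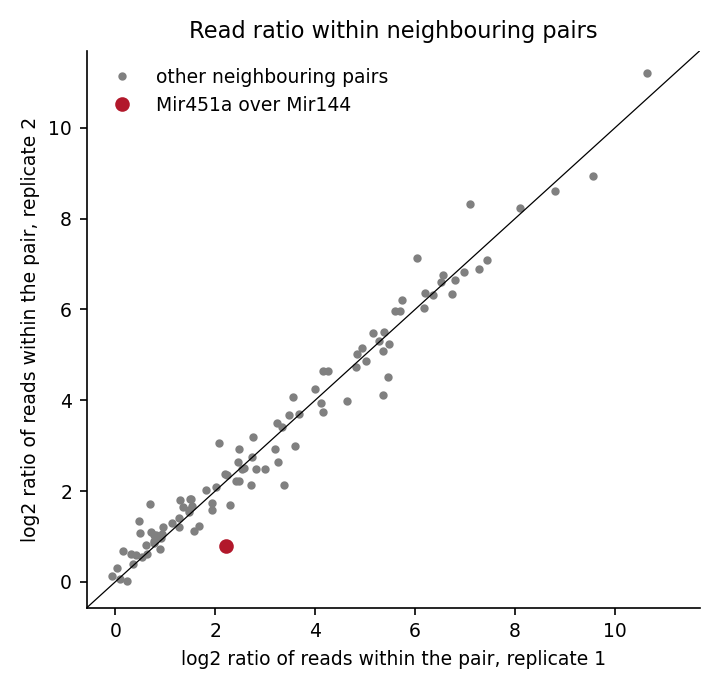
Log2 ratio of reads of the more abundant to the less abundant gene of 100 neighbouring pairs, replicate 2 on the y axis and replicate 1 on the x axis, with the line of equal ratios. Mir451a over Mir144, at 0.79 in replicate 2 and 2.22 in replicate 1, lies below the line.

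The reads on the opposite strand were counted for each gene. Mir451a had 0 opposite-strand reads in each library, which allows a share of up to 0.0772% of the reads at the locus in replicate 2 and 0.0622% in replicate 1. Mir144 also had 0, with limits of 0.133% in replicate 2 and 0.290% in replicate 1. Mir486 had 2 of 99 reads on the opposite strand in replicate 2 and 3 of 66 in replicate 1, or 2.02% and 4.55%, with exact Clopper-Pearson intervals of 0.246% to 7.11% and 0.947% to 12.7%. No signal from Mir451b was therefore detected at this depth in reads with a single position.

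The level of Mir486 is uncertain. Mir486 (ENSMUSG00000070084.3) is at chr8:23142555-23142682 on the plus strand of GRCm38, in an intron of Ank1, and Mir3107, also called mir-486b, is annotated inside this span on the minus strand. Mir3107 has no row of its own in the tables. The precursors share a stretch of 22 bases, the median length of the mature miRNAs examined. A read that lies wholly in that stretch has several positions, and such reads, 36.7% of all reads in replicate 2 and 34.6% in replicate 1, are in no gene row. How many of them belong to Mir486 was not tested. The longest stretch shared with another precursor was 16 bases for Mir451a and 13 for Mir144. The ratio of Mir451a to Mir486, 40.1 in replicate 2 and 76.5 in replicate 1, can therefore be too high.

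Over all 375 tested genes, 19.2% were higher and 23.2% lower in replicate 2, or 88 higher and 79 lower with TMM and 86 and 80 with DESeq2 scaling. Genes with more reads pass more easily: of 251 genes with at least 100 reads in all, 65 were higher and 80 lower. Most genes of the lists below had that many reads, so their shares are not matched in depth to those of all genes. Of 14 measured miRNAs known to be abundant in mature red cells, 4 were higher and 4 lower in replicate 2, and 6 did not pass. With TMM or DESeq2 scaling 7 were higher and 4 lower. Their median log2 ratio was 0.01, against -0.03 over all 375 genes. Lower in replicate 2 were the miR-16 genes Mir16-1 (-0.35, adjusted p 5.55e-126, exact binomial) and Mir16-2 (-0.57, 2.84e-75), which restrain the cell cycle. The miR-92a gene Mir92-1 (-0.31, 1.24e-19) and Mir182 (-0.20, 3.06e-26) were lower too. Higher in the same exact binomial test were Mir106b (0.29, adjusted p 2.04e-68), Mir15b (0.29, 5.78e-38), Mir185 (0.15, 0.0266) and Mirlet7g at 0.21. The list thus went both ways, as Mir451a and Mir144 did. Mature miR-16-5p is in the hairpins of both Mir16-1 and Mir16-2, and miR-92a-3p in those of both Mir92-1 and Mir92-2. Reads of these sequences can have several positions and be in no gene row, so the rows can lack much of these miRNAs. How many such reads there were was not tested. The highest members were Mirlet7g at 47802 ± 4922 CPM, Mirlet7i at 29478 ± 97.3 CPM and Mir16-1 at 4041 ± 685 CPM (SD, n = 2). These are found in many cell types, and the list exceeded the sum of the 3 genes 85.1-fold in replicate 2 and 70.1-fold in replicate 1.

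Of 10 measured miRNAs known to regulate or to change in red cell formation, 3 were higher, against 19.2% of all tested genes, 3 lower, against 23.2%, and 4 not called, with a median of -0.03. Of the 10, 5 were higher and 2 lower with TMM or DESeq2 scaling. Mir221, Mir222, Mir23a, Mir24-2 and Mir27a are also in the endothelial list below, and Mir223, Mir150 and Mir155 in the leukocyte list. The counts and medians of these lists are therefore not separate from one another. Mir221 and Mir222, known in human cells to hold back red cell formation by lowering the receptor KIT, stood at 456 ± 11.9 and 255 ± 23.0 CPM (SD, n = 2), and Mir222 was lower in replicate 2 at -0.18. The highest of this list were Mir23a, Mir22 and Mir223. Mir23a is a common partner of miR-451 in measures of red cell lysis in plasma, where its level is steady. Mir23a had 41.0 reads for each Mir451a read in replicate 2 and 25.6 in replicate 1, and 70.7 and 120 for each Mir144 read. The plasma measure does not carry over to whole lung, and the ratio was not tested here as a measure of red cells.

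The sum of the 3 genes stood to the total of 7 measured leukocyte genes at a log2 ratio of -1.65 in replicate 2 and -1.58 in replicate 1. Of 6 leukocyte genes tested, 3 were higher in replicate 2, against 19.2% of all tested genes, and 2 lower, against 23.2%, with a median of -0.05. The myeloid Mir223 was at 1381 CPM in replicate 2 and 1232 CPM in replicate 1, so 1.93 and 1.16 times Mir451a. Mir342, at 1378 ± 406 CPM (SD, n = 2), also had a higher mean than Mir451a. Mir451a had a higher mean than the other 5, namely Mir146 at 830 ± 116 CPM, Mir150, Mir155, Mir146b and Mir142b. Mir146 was above Mir451a in replicate 2, at 912 against 716 CPM, and below it in replicate 1, at 749 against 1064 CPM. Mir142b, the row at the locus of Mir142, held 0 own-strand reads, and 9651 opposite-strand reads in replicate 2 and 7040 in replicate 1, so the leukocyte total lacks that miRNA. The endothelial list, led by Mir126a, Mir23a and Mir23b, exceeded the 3 genes 189-fold in replicate 2 and 166-fold in replicate 1, with a median log2 ratio between the libraries of 0.00. Of its 7 members 2 were higher, or 4 with TMM or DESeq2 scaling, and 2 lower, against 19.2% and 23.2% of all tested genes, or 88 and 79 of 375 with TMM. In the endothelial list Mir126a averaged 160649 CPM, Mir23a 28307 and Mir23b 25860, of 217088 CPM in all. How much of Mir23a and Mir23b came from endothelium was not tested. The lung epithelium list, led by Mir449a, Mir429 and Mir200c, exceeded the 3 genes 47.6-fold and 41.9-fold, with a median log2 ratio of -0.08. Of its 8 members 3 were higher and 4 lower, against 19.2% and 23.2% of all tested genes.

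Mir451a, whose own hairpin is cut by Drosha, was also set beside miRNAs made without Drosha or its partner. None of 6 tested was higher in replicate 2, against 19.2% of all tested genes, and 4 were lower, against 23.2%, with a median of -0.42. The highest of them was Mir484, a Drosha-independent hairpin, at 1699 ± 146 CPM with a log2 ratio of -0.18 (adjusted p 2.03e-14, exact binomial). Next were Mir320 at 396 ± 5.35 CPM and Mir668 at 55.9 ± 22.7 CPM (SD, n = 2). Mir320, at -0.03 (adjusted p 0.719, exact binomial), and Mir877, at -0.14, did not pass. Mir668 was at -0.85, Mir1981 at -0.67, and Mir702 at -0.87 with only 26 reads in replicate 2 and 40 in replicate 1.

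The genes with the log2 ratio nearest to each member, among those averaging 100 reads or more, were taken over only 2 libraries. For Mir451a they were Mir218-1, Mir16-2 and Mir103-2, all at -0.57 to -0.59. For Mir144 they were Mir490 at 0.87, then Mir296 at 0.57 and Mir701 at 0.55, and Mir490 was the 1 gene of these with a higher ratio than Mir144. For Mir486 they were Mir33, Mir434 and Mir674, at 0.38, 0.33 and 0.32.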

How the data were processed

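The authors deposited 1 table of raw read counts per library, not normalized, on mm10 with GENCODE M4, per the files' deposited description. The sources used here do not name the aligner, the counting program or the trimming. Each table holds either-strand, own-strand and opposite-strand counts; the own-strand column was used. Totals and tests left out 4 rows without a gene. Reads on miRNA genes were 52.2% of all reads in replicate 2 and 54.8% in replicate 1. Names and positions came from GENCODE M21 (GRCm38, the same assembly), which matched 1894 of 1973 identifiers. Arms of a precursor were counted together. Log2 ratios of a gene between libraries used 0.5 added reads; those within pairs and to lists used none. Genes with at least 10 reads in all were tested with the exact binomial test (scipy 1.17.1), neighbouring pairs with Fisher's exact test, both called at an adjusted p of 0.05. edgeR 4.0.16 gave TMM and the negative binomial test, DESeq2 1.42.0 size factors, and ViennaRNA 2.7.2 the folds. Tests were checked on simulated data. The binomial and Fisher checks held no spread between pups, and the negative binomial check used changes larger than that of Mir144. A detected gene had at least 10 reads in each library, and the limit for 0 reads was 3 reads. Named genes were the members, 3 neighbours in level on each side, 3 nearest log2 ratios, seed sharers, the 3 highest of each list and the 5 pairs changed most; others named were chosen after their values were seen. Members and lists were chosen with earlier results of these data known.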

Additional observations from a re-analysis of the deposited data

How the results depend on the processing

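Per 1000000 of all reads in the tables, miRNA or not, the mean levels were 478 for Mir451a, 171 for Mir144, 8.47 for Mir486 and 657 for their sum, since the total is larger by construction. The either-strand column, TMM sizes and DESeq2 size factors moved the levels by less than 1 SD. Leaving out a replicate gave 716 to 1064 CPM for Mir451a, 228 to 415 for Mir144, 13.9 to 17.9 for Mir486, 1149 to 1306 for the sum, and 0.79 to 2.22 for the log2 ratio of Mir451a to Mir144. Under 5 other settings of the binomial test, Mir144 (log2 ratio 0.86 to 0.90) and Mir451a (-0.57 to -0.54) kept their direction and passed, and Mir486 did not pass. In the negative binomial exact test neither passed (Mir144 0.87, adjusted p 0.134; Mir451a -0.57, adjusted p 0.553), and 4 genes did in place of 159. With 59 pairs within 1000 bases, 28 passed in place of 45 of 100, and the change of the Mir451a to Mir144 ratio passed in every setting tried. With TMM or DESeq2 scaling, chosen after seeing the data for the lists, the leukocyte and Drosha-independent lists kept their counts, and those of the other lists rose by at most 3 upward or fell by 1 downward. No paired analysis was possible because there is 1 group. With 2 libraries the spread between pups is poorly known.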
